A study of Mus musculus with 18 samples.

Results

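Base excision repair genes were followed in the nasal mucosa of mice, across 3 groups of 6 RNA sequencing libraries. The 32 genes are Apex1, which encodes APE1, and 31 other genes of the pathway, taken from a table of 54532 genes by their symbols; all 32 were found once and all 32 passed the filter on low counts that left 18291 genes for testing. The series title names APE1 as the target of an inhibitor. The group CON is the control, and the labels do not say what it received. The group CRS is a model of chronic rhinosinusitis, a lasting inflammation of the nose and sinuses, made with papain, a plant protease, given intranasally as 20 µg in 20 µL, daily from day 0 to 2 and again from day 7 to 11. The group C10 had the compound C10, which the protocol describes as a treatment of CRS animals, so papain is assumed there too; C10 was given at 10 mg/mL, 10 µL into each side of the nose, once daily over 10 days, starting with the papain. The labels record no vehicle for CRS; effects of compound and of repeated dosing therefore cannot be told apart. Strain, sex and age are not given. The labels do not state that the 6 libraries of a group are from different animals, and the p-values cover the variation among them, which may be technical.

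Base excision repair removes small damaged bases from DNA. A glycosylase cuts the damaged base from the sugar, an AP endonuclease nicks the strand at the empty site, a polymerase fills the gap and a ligase seals it. PARP enzymes mark the nick and recruit the scaffold protein XRCC1, and a longer patch can be made with the replication machinery of PCNA, polymerase delta, the flap nuclease FEN1 and ligase LIG1. APE1 is the main AP endonuclease of mammalian cells and has a separate redox activity, by which it keeps several transcription factors in a reduced form that binds DNA. A transcript level reports neither activity, and inhibition of a protein need not alter its own transcript.

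The labelled tissue was borne out by its markers in all 18 libraries. Omp, of olfactory neurons, lay at 1241 to 3490 CPM (counts scaled to the library size), Cyp2g1, of olfactory supporting cells, at 779 to 1930, Foxj1, of ciliated cells, at 114 to 244, and Krt5, of basal cells, at 118 to 211. Libraries held 15883573 to 18433866 counts. CRS 2 and CRS 5 lay at one end of the first principal component (-66.1 and -48.8) and CRS 1 at the other (57.5), against -27.9 to 44.6 for the CON and C10 libraries. In bulk tissue, fewer cells of a type and less RNA per cell cannot be told apart.

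The pathway was present at low to moderate levels. Levels between genes are compared in FPKM, in which counts are scaled by gene length and library size, as the mean over 18 libraries. Pcna, the sliding clamp of replication and repair, was highest at 24.5 ± 3.60 FPKM (SD, n = 18). Pold4, a small subunit of DNA polymerase delta, followed at 16.7 ± 3.32, Hmgb1, a chromatin protein and repair cofactor, at 15.6 ± 1.82, and Parp1, the main nick sensor, at 14.0 ± 1.04. The lowest were Neil3 (0.298 ± 0.0984) and Neil2 (0.403 ± 0.113), both glycosylases of oxidised bases, and the flap nuclease Fen1 (0.404 ± 0.156). The members had a median of 4.14 FPKM, against 4.41 over all genes tested. Among the 11 glycosylases, Tdg, which acts on thymine mispaired with guanine, was highest (7.01 ± 0.761), ahead of Ogg1, which removes oxidised guanine (6.40 ± 0.796), while Mutyh, which removes adenine paired with oxidised guanine, stood at 0.586 ± 0.164. The plot of levels by gene shows these orders with every library.

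**Figure D1:**
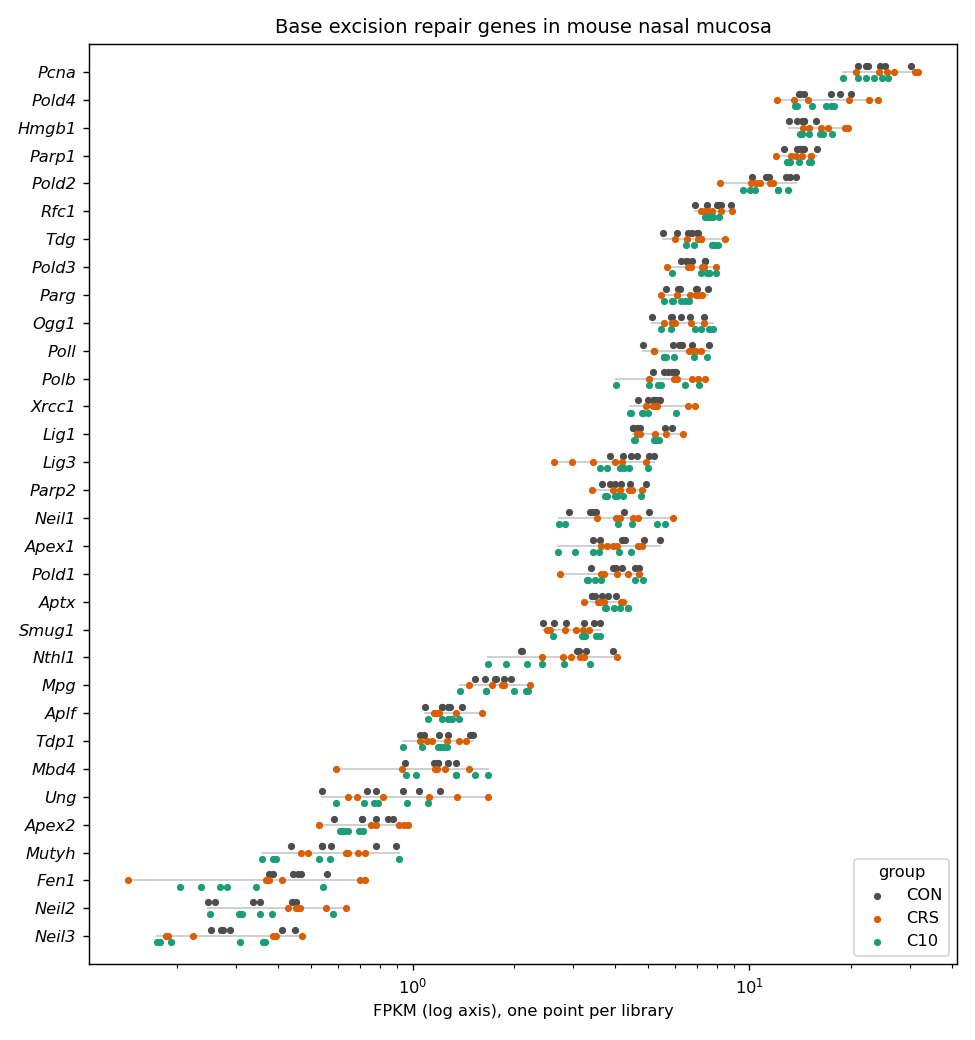
Level of each of the 32 genes in FPKM on a log axis, 1 point per library, coloured by group, with a grey line from the lowest to the highest of 18 libraries. Pcna is highest and Neil3 lowest, and in each gene the points of the 3 groups overlap.

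Apex1 itself stood 18th of 32, at 3.99 ± 0.681 FPKM, on 70 to 132 counts per library. This level has to be read with the gene's position. In the mm10 build the files place Apex1 (ENSMUSG00000035960) on chromosome 14 from 50924968 to 50927139 on the plus strand, and Pip4p1, a lipid phosphatase gene, runs against it on the minus strand from 50926068 to 50930856. By the GENCODE M21 annotation, 877 of the 1422 exon bases of Apex1, or 61.7%, are also exon of Pip4p1, which leaves 545 bases that belong to Apex1 alone. For Fen1, 2039 of 2422 exon bases (84.2%) are shared, with the antisense gene Gm10143 and with Tmem258, both on the other strand. Across protein-coding genes, counts were low where over 50% of the exon bases are shared, and not below that share. The median of the counts summed over 18 libraries was 2106 for 15485 genes with no shared exon base, 6272 for 5910 genes sharing up to 50%, 515 for 257 genes sharing 50 to 75%, 14.0 for 199 genes sharing 75 to under 100%, and 0 for 177 genes whose exon bases are all shared, 73.4% of which had no count at all. The counting tool is not given in the sources used here, and whether reads in shared exons were left out was not tested on reads. Per kilobase of unshared exon, a scale chosen after these counts were seen, Apex1 would stand at 10.4 and Fen1 at 2.55. Fold changes of Apex1 and Fen1 rest on few counts, and Fen1 had 6 to 30 per library. The next highest share was that of Mpg, a glycosylase of alkylated bases, which shares 35.7% with Nprl3, followed by Lig3 with 25.1% (Rffl) and Pold4 with 24.6%, from a gene model. Apex2 shares 4.96% with Alas2 and Pfkfb1, and Ogg1 10.6% with Camk1.

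**Figure D2:**
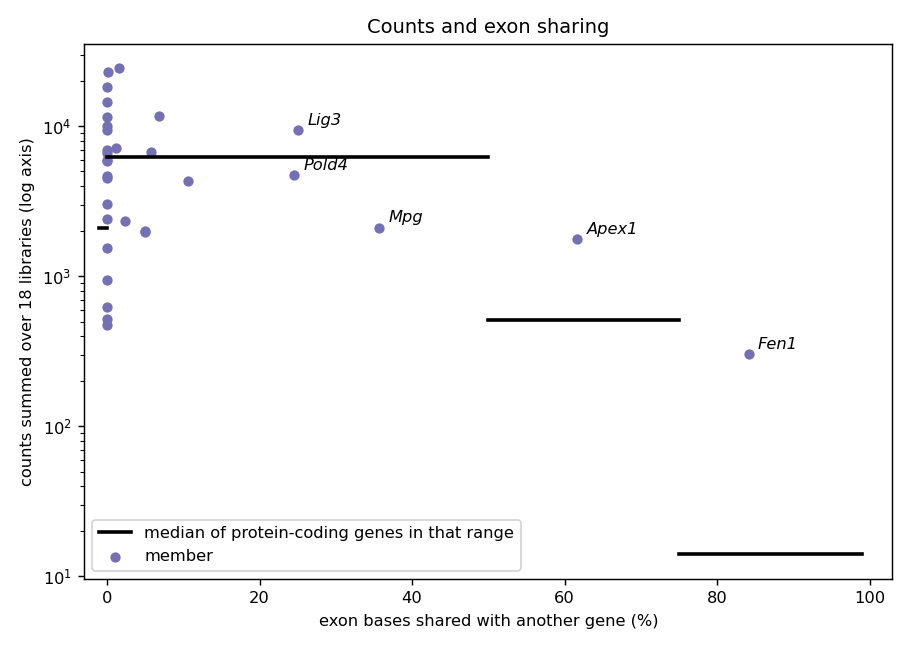
Counts summed over 18 libraries (log axis) against the percentage of exon bases shared with another gene, 1 point per member, with black bars at the median of protein-coding genes in each range of sharing; genes with all exon bases shared have a median of 0 and are not drawn. Apex1 at 61.7% and Fen1 at 84.2% lie far to the right of the other members.

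The promoter of Apex1 is also shared. Osgep, a tRNA modification gene on the minus strand, ends its annotation at 50924893, 74 bases from the start of Apex1, so both genes begin inside the window shown. The windows of Pcna and Pold4 are shown beside it because these genes followed the level of cycling cells across libraries, as described further on. They come from RefSeq on GRCm38.p6, the assembly of mm10, run 5′ to 3′ on the strand of the gene from 250 bases before to 50 after its RefSeq start, and have in capitals each match, on either strand, to the letters CCAAT, to the GC box letters GGGCGG and to the E-box letters CACGTG.
Apex1, chr14:50924699-50924998, plus strand: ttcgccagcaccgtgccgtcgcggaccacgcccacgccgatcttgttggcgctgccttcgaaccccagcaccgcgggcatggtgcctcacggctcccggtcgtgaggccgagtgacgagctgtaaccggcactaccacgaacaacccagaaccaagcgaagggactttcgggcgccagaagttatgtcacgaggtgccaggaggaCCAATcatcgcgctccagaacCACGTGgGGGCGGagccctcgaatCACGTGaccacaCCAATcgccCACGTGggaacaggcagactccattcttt
Pcna, chr2:132253131-132253430, minus strand: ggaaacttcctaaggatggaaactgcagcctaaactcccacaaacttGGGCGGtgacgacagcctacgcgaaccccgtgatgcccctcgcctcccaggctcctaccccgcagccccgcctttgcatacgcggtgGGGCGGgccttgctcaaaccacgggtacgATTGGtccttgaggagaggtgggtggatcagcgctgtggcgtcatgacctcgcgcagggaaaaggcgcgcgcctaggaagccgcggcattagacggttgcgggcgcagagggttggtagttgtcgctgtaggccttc
Pold4, chr19:4231643-4231942, plus strand: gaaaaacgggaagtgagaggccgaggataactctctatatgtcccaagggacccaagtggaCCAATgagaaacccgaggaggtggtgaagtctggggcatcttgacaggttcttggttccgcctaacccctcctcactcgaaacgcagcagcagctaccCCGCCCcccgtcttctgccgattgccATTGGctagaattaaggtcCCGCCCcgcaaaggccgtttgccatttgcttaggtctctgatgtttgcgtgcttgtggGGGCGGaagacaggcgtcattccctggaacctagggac

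The Apex1 window holds 3 copies of CACGTG and 2 of CCAAT, while those of Pcna and Pold4 hold no CACGTG. RefSeq windows were matched for 28 of the 32 genes; where a gene has several, the one nearest the deposited gene start was used. CACGTG was in 7 of the 28 (25%), against 7.15% of 32851 windows of all genes, in which a gene can appear more than once. CCAAT was in 16 (57.1% against 37.4%) and GGGCGG in 19 (67.9% against 35.7%). The E2F-type letters TTTGGCGC, TTTCCCGC, TTTGCCGC and TTTCGCGC, known from promoters of replication genes, were in 3 of the 28 windows, those of Nthl1, Pold1 and Pold3 (10.7% against 2.26%), and in none of the 3 windows shown. Base composition was not matched in these shares, and a match of letters is not a bound site.

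Papain treatment moved no member past the threshold. In CRS against CON, edgeR called 0 of 32 members at an adjusted p under 0.05 (the lowest was 0.246), where the background was 0.00547% of all genes tested. DESeq2 also called 0 members, with a background of 0.974%, and so did limma-voom with sample quality weights, with 5.14%. At an unadjusted p under 0.05 there were 3 members, against a background of 14% of all genes. The median log2 fold change of the members was 0.01, with 19 of 32 above 0, and the median over all genes was 0.00. In no member were the 2 groups free of overlap, against 0.662% of all genes.

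Apex1 had 4.94, 6.07 and 7.74 CPM (lowest, median and highest of 6) in CON and 5.16, 5.71 and 6.80 in CRS. The CRS range lay inside that of CON (log2 fold change -0.06 ± 0.15 SE, edgeR adjusted p = 0.89). Apex2, a second AP endonuclease with a weaker activity, had 5.17, 6.57 and 7.75 CPM in CON and 4.57, 7.47 and 8.64 in CRS, again overlapping (0.11 ± 0.14, edgeR adjusted p = 0.744).

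Hmgb1 had the smallest p of the members. Its levels were 65.9, 73.2 and 80.1 CPM in CON and 72.2, 84.2 and 98.8 in CRS, and 5 of 6 CRS libraries lay above the CON median (0.23 ± 0.08, edgeR adjusted p = 0.246). Lig3, the ligase that partners with XRCC1 and also serves mitochondria, had 28.3, 33.6 and 38.2 CPM in CON and 19.5, 27.2 and 35.9 in CRS. In this gene 5 of 6 CRS libraries lay below the CON median, and CRS 1 was the highest of CRS (-0.31 ± 0.13, edgeR adjusted p = 0.288). Without CRS 1, Lig3 passed as the only member (-0.41, edgeR adjusted p = 0.0491), in a fit that called 5.39% of all genes. Neil2 had 1.25, 1.74 and 2.28 CPM in CON and 2.13, 2.35 and 3.19 in CRS. Every one of the 6 CRS values exceeded the median of CON, though the lowest of CRS, CRS 3, was exceeded by the highest of CON (0.52 ± 0.21, edgeR adjusted p = 0.296).

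By role, 7 of 11 glycosylases lay above 0, from -0.12 (Mbd4, a glycosylase of methylated sites) to 0.52 (Neil2). Parp1, Parp2 and Parg, which make and remove poly(ADP-ribose) chains, were the steadiest group, between -0.03 and 0.00. The scaffold and end-processing genes Xrcc1, Aptx, Aplf and Tdp1 lay between -0.05 and 0.14, and the long-patch and replication genes between -0.21 (Pold2) and 0.13 (Pcna). None of these passed.

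Between C10 and CRS the members again gave no call, with edgeR (0 of 32, lowest adjusted p = 0.358; background 0.082%), DESeq2 (background 1.92%) or weighted limma-voom (background 3%). There were 2 members at an unadjusted p under 0.05, against 13.2% of all genes. Of the 32, 21 lay below 0 and the median was -0.06, against 0.01 over all genes. No member had groups free of overlap, against 0.88% of all genes.

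Apex1 in C10 had 3.90, 5.04 and 6.46 CPM. This was lower on average than in CRS, 5.11 ± 0.939 against 5.93 ± 0.669 CPM (SD, n = 6 each), but the ranges overlapped, with 2 of 6 C10 libraries above the CRS median. The log2 fold change was -0.21 ± 0.15 (edgeR adjusted p = 0.568; exact two-sided permutation test of the mean log2 CPM, p = 0.104, and 0.156 adjusted over 3 comparisons). Its neighbours stood at -0.19 ± 0.05 (Pip4p1, edgeR adjusted p = 0.11) and -0.20 ± 0.09 (Osgep, edgeR adjusted p = 0.333) in this comparison. In CRS against CON they stood at 0.15 and 0.16, where Apex1 was at -0.06, and in C10 against CON at -0.05 and -0.03, where Apex1 was at -0.27. For Apex1, the 95% interval of the main fit for C10 against CRS ran from -0.52 to 0.09, so a fall of more than 1.5-fold lay outside it.

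Apex2 had the smallest p here. Its C10 values were close together, at 5.38, 5.64 and 6.27 CPM, and all 6 lay below the CRS median, while CRS 3 at 4.57 lay below them all (-0.32 ± 0.14, edgeR adjusted p = 0.358). Alas2, the haem enzyme gene of red cell precursors that overlaps Apex2, had a log2 fold change of 0.66 ± 0.49 in the other direction (edgeR adjusted p = 0.602). In CRS against CON Alas2 stood at -1.85, where Apex2 was at 0.11. In C10 against CON both were below 0, Alas2 at -1.19 and Apex2 at -0.20. Xrcc1 had 28.8, 31.2 and 41.0 CPM in CRS and 26.2, 28.4 and 35.5 in C10, where 5 of 6 lay below the CRS median (-0.20 ± 0.09, edgeR adjusted p = 0.364). Pcna had 50.7, 63.4 and 76.0 CPM in CRS and 46.1, 55.1 and 63.0 in C10. All 6 C10 libraries lay below the CRS median, but CRS 2, at 50.7, was lower than 5 of them (-0.22 ± 0.11, edgeR adjusted p = 0.382).

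The glycosylases lay between -0.44 (Neil2) and 0.27 (Mbd4), with 6 of 11 below 0. Nthl1, which removes oxidised pyrimidines, stood at -0.36 and Ung, which removes uracil, at -0.34, each on low counts. Parp1 was level at 0.00, and Parp2 and Parg stood at -0.02 and -0.10. Polb, the gap-filling polymerase, stood at -0.19 and Poll, a related polymerase, at -0.02. Fen1 had the widest distance, at -0.52 ± 0.32, with an interval from -1.19 to 0.15. Tmem258, which shares exon bases with Fen1, stood at -0.56 ± 0.23 (edgeR adjusted p = 0.298) in this comparison. In CRS against CON it stood at 0.73, where Fen1 was at 0.01, and in C10 against CON at 0.17, where Fen1 was at -0.51. A part of the shared exons in these values was not tested.

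**Figure D3:**
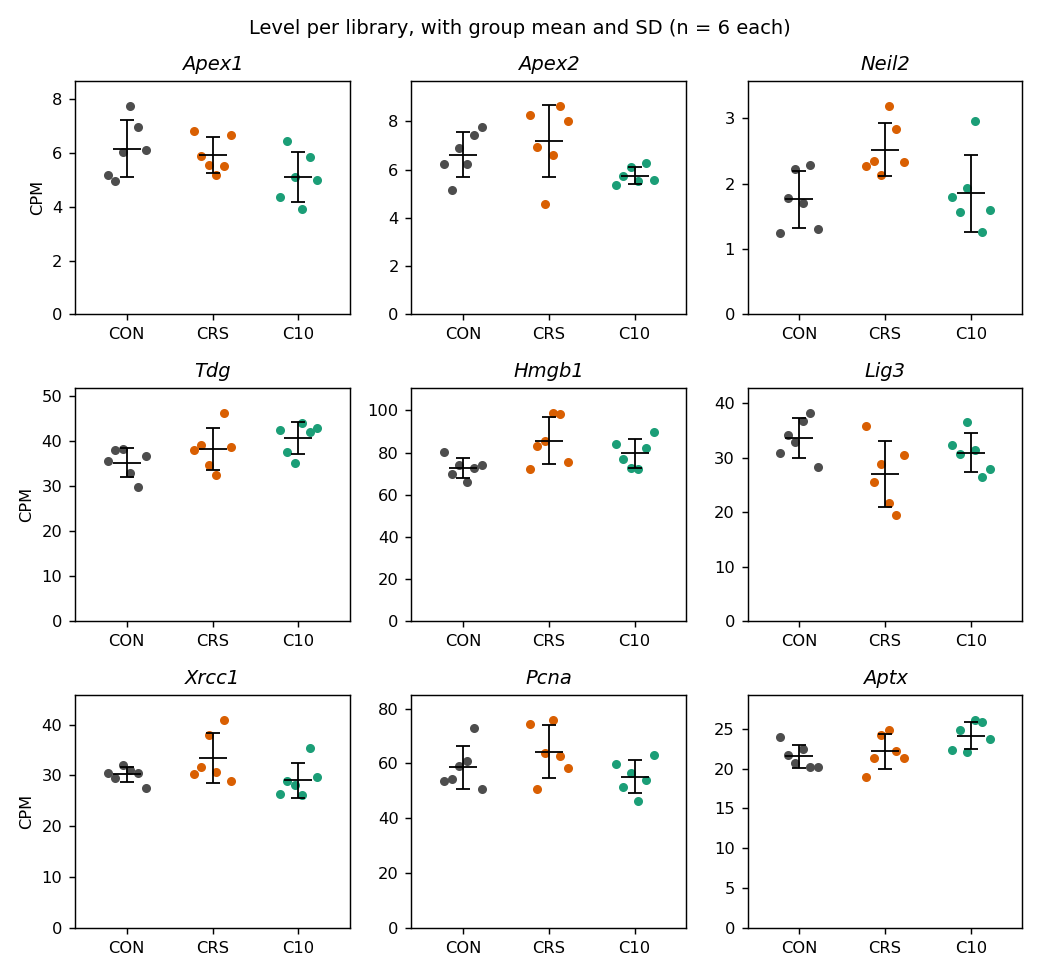
CPM in each library of the 9 members with the smallest p in a comparison or of first interest, by group, with a bar at the mean and whiskers of 1 SD (n = 6 each). The groups overlap in all 9 panels; the C10 points of Apex2 are close together and those of CRS are spread.

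In C10 against CON, which shares its libraries with the other 2 comparisons, edgeR called 0 of 32 members (lowest adjusted p = 0.314; background 0.159%), as did DESeq2 (background 1.69%) and weighted limma-voom (background 1.38%). There were 2 members at an unadjusted p under 0.05, against 13.1% of all genes, and none free of overlap, against 1.82%. The median was -0.04, with 20 of 32 below 0, and 0.01 over all genes. Tdg had 29.9, 36.2 and 38.2 CPM in CON and 35.1, 42.2 and 44.0 in C10. In C10, 5 of 6 libraries lay above the CON median (0.21 ± 0.09, edgeR adjusted p = 0.314). Aptx, which removes AMP left by failed ligation, had 20.2, 21.2 and 23.9 CPM in CON and 22.1, 24.3 and 26.1 in C10, all 6 above the CON median (0.17 ± 0.08, edgeR adjusted p = 0.358). Apex1 had the third smallest p, with 5 of 6 C10 libraries below the CON median (-0.27 ± 0.15, edgeR adjusted p = 0.444; exact two-sided permutation p = 0.0996, and 0.156 adjusted over 3 comparisons). The exact test could have reached 0.00216 with 6 against 6 libraries.

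The intervals give the range of change compatible with these libraries. In CRS against CON, the 95% interval of the log2 fold change lay within 1.5-fold on either side for 27 of 32 members and within 2-fold for 32. In C10 against CRS it lay within 1.5-fold for 24 and within 2-fold for 31, and in C10 against CON for 27 and 31. Fen1 was the member outside 2-fold in both comparisons with C10. Apex1 lay within 1.5-fold in each of the 3 comparisons in the main fit. In C10 against CON this held only narrowly, with an interval from -0.575 to 0.038. Over the alternatives its log2 fold change there reached -0.35, and whether the interval then stays within 1.5-fold is not given here. The intervals of the main fit are for 1 gene at a time and are not widened for 32 genes. The largest distance in any comparison was 0.52 on the log2 scale, and a distance under 0.2 was found for 26, 22 and 25 of the 32 members in the 3 comparisons in the order given above.

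**Figure D4:**
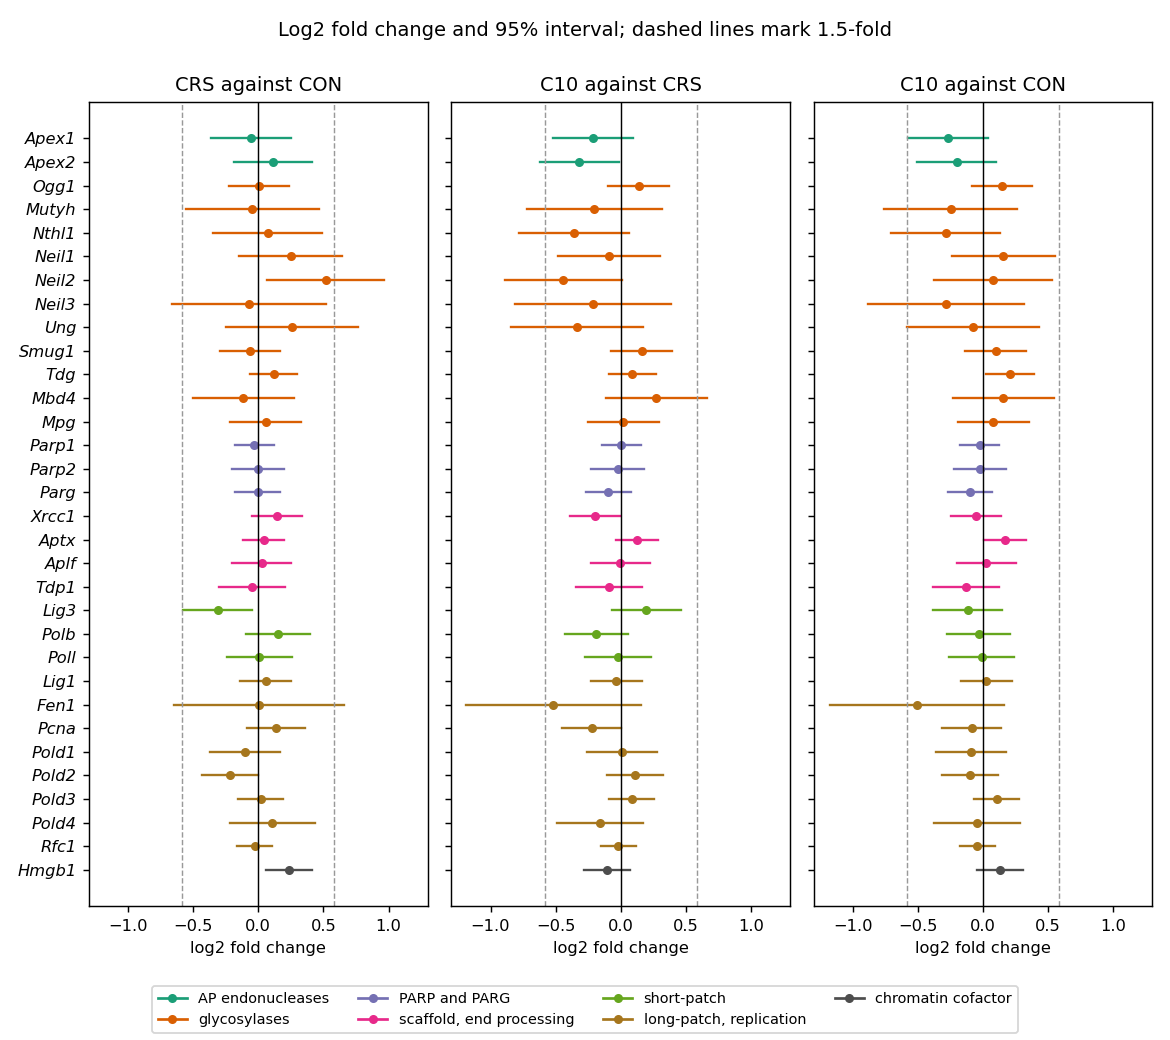
Log2 fold change of each member with its 95% interval in the 3 comparisons, coloured by role; dashed lines mark 1.5-fold on either side. Apex1 lies within the dashed lines in each panel, though only narrowly in C10 against CON, the PARP genes lie near 0, and Fen1 has the widest interval.

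Libraries of a group differed less in these genes than in most. The spread within groups, as the SD of log2 CPM, had a median of 0.188 over the members and 0.264 over all genes tested. Rfc1, the large subunit of the clamp loader, varied least (0.0968), followed by Aptx (0.114) and Parp1 (0.116). Ung (0.393), Neil3 (0.378) and Fen1 (0.356) had the largest values on this scale. The added 0.5 CPM narrows the spread of genes at low CPM. As SD over mean CPM in CON, CRS and C10, Ung had 27.0%, 38.1% and 21.9%, Neil3 25.4%, 40.2% and 35.0%, and Fen1 14.8%, 48.0% and 39.5%. Neil3 and Fen1 had on average 28.8 and 16.8 counts per library, where counting alone gives an SD of log2 counts of 0.269 and 0.352. These counting values have no added 0.5 CPM, so they are not on the scale of the spread above. For Ung, with 85.8 counts, counting gives 0.156. The Ung values of CRS ran from 3.59 to 9.09 CPM, the latter in CRS 3.

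A few members followed the marker levels of cell types across libraries. Each member was set against 5 marker lists over 18 libraries, which makes 160 pairs, with permutation p-values adjusted over all of them. By r, 2 of 32 members passed with cycling cells, 1 with neuron precursors, 2 with mature olfactory neurons, 1 with leukocytes and 0 with ciliated cells. Ung, Neil3 and Fen1 passed with no list. The share of all genes tested that would pass was not computed, so these relations cannot be called particular to the members. Pold4 followed the markers of cycling cells, such as Mki67 and Top2a, with r = 0.77 (adjusted permutation p = 0.0232) and rho = 0.78 (adjusted permutation p = 0.0136). Within CON, CRS and C10 its r was 0.94, 0.73 and 0.80, and without CON 5 and CRS 1, the libraries farthest from the median, 0.83. Pcna, which cells make in S phase, gave r = 0.74 (adjusted permutation p = 0.0232) and rho = 0.69 (adjusted permutation p = 0.0525), so only the former passed. Within the groups its r was 0.93, 0.82 and 0.75, and 0.57 without those 2 libraries.

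Pold4 also followed the leukocyte markers (r = 0.72, adjusted permutation p = 0.0232; rho = 0.74, adjusted permutation p = 0.0288), with r from 0.79 to 0.81 within the groups and 0.65 without CRS 1 and CRS 2. It ran against the markers of mature olfactory neurons (r = -0.71, adjusted permutation p = 0.0357; rho = -0.73, adjusted permutation p = 0.0384), with -0.82, -0.79 and -0.71 within the groups and -0.74 without CON 5 and CRS 1. These lists are not independent of one another: CRS 1 was highest of CRS for the cycling and leukocyte markers and lowest for the neurons, and CRS 2 the reverse. Lig3 ran against the mature neurons (r = -0.69, adjusted permutation p = 0.0357; rho = -0.81, adjusted permutation p = 0.0128). Its r was -0.86, -0.64 and -0.90 within the groups and -0.60 without CON 5 and CRS 1. Beside the Lig3 values of CRS, the summed level of the 8 neuron markers had a median of 5845 CPM in CRS (3409 to 8713) and 5071 in CON (2934 to 7172). A fit with the level of these markers as a covariate was among the 30 settings run for Lig3 in CRS against CON. Its log2 fold change was below 0 in all 30 (-0.41 to -0.19), and it was called only without CRS 1. The value of the covariate fit is not given apart from this range, so the range does not show how far the covariate moved it. Whether the neurons cause the Lig3 values was not tested.

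Tdg followed the markers of globose basal cells, which divide to renew olfactory neurons, and of neuron precursors (r = 0.74, adjusted permutation p = 0.0232; rho = 0.71, adjusted permutation p = 0.0416). Within CON, CRS and C10 its r was 0.54, 0.82 and 0.42, and without C10 5 and C10 6 it was 0.69. As for every pair, the permutation took no account of group, and r within a group was not tested. The medians of Tdg and of the precursor genes were both higher in C10 than in CON. A shared difference between groups and a relation among libraries therefore cannot be told apart by these p-values. The 6 precursor genes summed to a median of 91.2 CPM in CON (75.3 to 105), 99.7 in CRS (70.9 to 145) and 153 in C10 (104 to 170), and none was at 0 in any library. The ranges of CON and CRS overlapped. Of the 6 genes, edgeR called 0 in CRS against CON, 0 in C10 against CRS and 1 in C10 against CON, against 0.00547%, 0.082% and 0.159% of all genes. The gene called was Neurod1, a factor of neuron precursors, which rose (1.80 ± 0.30, edgeR adjusted p = 0.018). The part of the precursor genes in the Tdg values of C10 was not tested. Apex1 passed with none of the 5 lists. With cycling cells it had r = 0.35 (adjusted permutation p = 0.38) and rho = 0.19 (adjusted permutation p = 0.665), and r within CON, CRS and C10 was 0.84, 0.29 and -0.26.

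**Figure D5:**
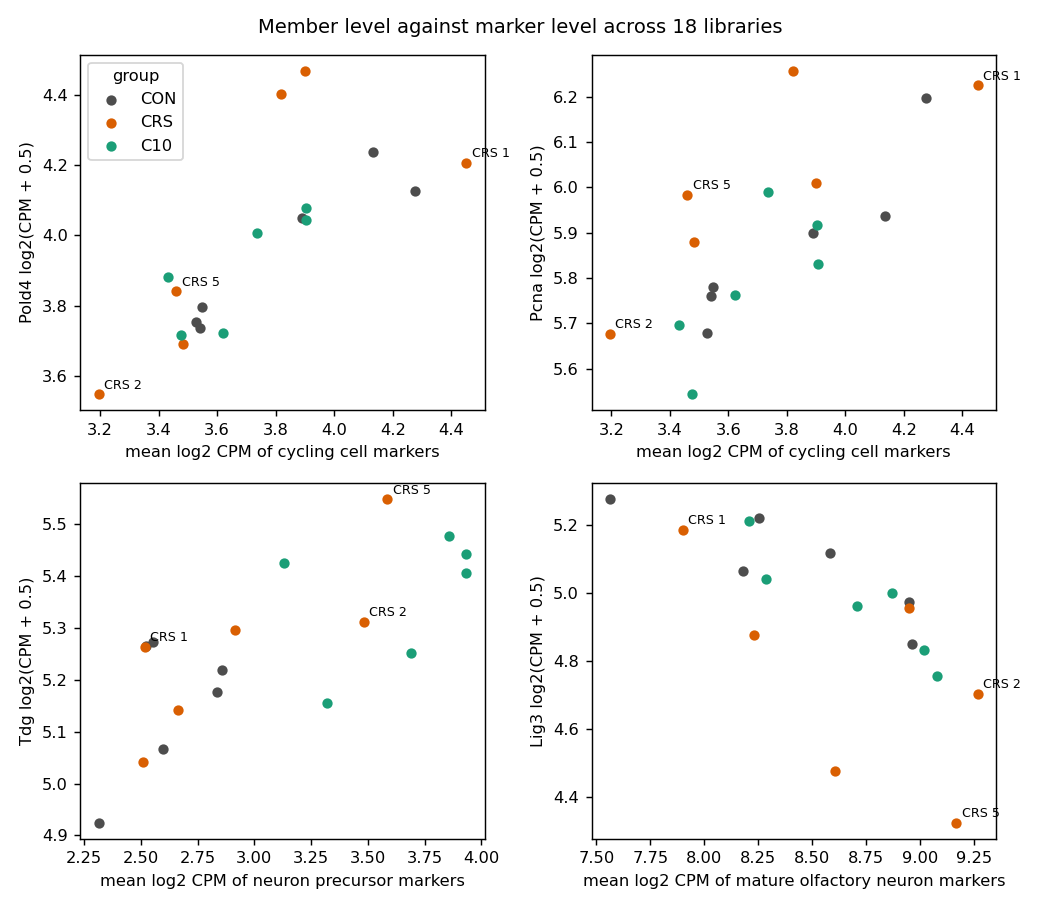
Level of Pold4, Pcna, Tdg and Lig3 as log2(CPM + 0.5) against the mean log2 CPM of a marker list, 1 point per library, coloured by group, with CRS 1, CRS 2 and CRS 5 named. Pold4 and Pcna are higher where cycling cell markers are higher, Tdg where precursor markers are higher, and Lig3 is lower where mature neuron markers are higher.

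Partner genes outside the 32 also gave no call with edgeR. Over all genes it called 0.00547% in CRS against CON, 0.082% in C10 against CRS and 0.159% in C10 against CON. At such shares, 0 calls in a short list carry little information. Calls in these lists were counted with edgeR only. Of 13 measured genes of single-strand break repair, edgeR called 0 in each of the 3 comparisons. In CRS against CON, 9 of them lay above 0, with a median of 0.25 against 0.00 over all genes, and 5 of 13 had an unadjusted p under 0.05, against 14% of all genes. They were led by Tdp2, which frees trapped topoisomerase (0.34 ± 0.10, edgeR adjusted p = 0.223), and Hpf1, the partner that directs PARP to serine (0.30 ± 0.12, edgeR adjusted p = 0.27). Since the lists were chosen with earlier results of these data known, the 5 of 13 genes are not independent support for a rise. In C10 against CRS, 10 lay below 0 (median -0.08) and 2 had an unadjusted p under 0.05, against 13.2% of all genes: Parp3, a relative of Parp1 (-0.32 ± 0.09, edgeR adjusted p = 0.142), and Nudt1, which clears oxidised nucleotides (-0.36 ± 0.14, edgeR adjusted p = 0.291). In C10 against CON, Parp3 stood at -0.40 ± 0.09 (edgeR adjusted p = 0.0827). Of 15 replication partners, 0 were called in any comparison; Pole3 (0.19 ± 0.07, edgeR adjusted p = 0.271) and Rpa3 (0.31 ± 0.15, edgeR adjusted p = 0.353) led in CRS against CON. Of 7 genes of mitochondrial DNA upkeep, 0 were called, and Ssbp1, which binds single-stranded mitochondrial DNA, stood at 0.30 ± 0.11 in CRS against CON and at -0.27 ± 0.11 in C10 against CRS (edgeR adjusted p = 0.271 and 0.31).

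The redox side of APE1 was followed through 15 genes of the thioredoxin system and of factors whose DNA binding APE1 is known to act on. None passed with edgeR in any of the 3 comparisons, where 0.00547%, 0.082% and 0.159% of all genes did. At an unadjusted p under 0.05 there were 3, 3 and 2 of 15, against 14%, 13.2% and 13.1% of all genes. Txn1, the thioredoxin of the cytosol, stood at 0.46 ± 0.15 in CRS against CON (edgeR adjusted p = 0.227), and Egr1, an immediate early factor, at -0.88 ± 0.29 (edgeR adjusted p = 0.227). In C10 against CRS, Txn2, the mitochondrial thioredoxin, stood at -0.30 ± 0.10 (edgeR adjusted p = 0.212) and Jun, a subunit of AP-1, at -0.28 ± 0.13 (edgeR adjusted p = 0.355). In C10 against CON, Egr1 stood at -0.82 ± 0.29 (edgeR adjusted p = 0.249) and Rela, a subunit of NF-kB, at -0.27 ± 0.12 (edgeR adjusted p = 0.336). These are transcript levels, and the binding of these factors was not measured here.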

How the data were processed

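Poly(A)-selected RNA of nasal mucosa was sequenced in 18 libraries, per the labels' protocols; the kit is not stated to keep strand. The deposited table holds raw read counts per gene from the authors, and a second deposited table their FPKM, in which count over gene length and FPKM keep 1 ratio per library. The submitters' processing notes give mm10; read aligner, counter and gene annotation are not named in the sources used. Of 54532 gene IDs, 53585 have the same start and end in GENCODE M21, used for exon overlap. Genes were tested with edgeR 4.0.16 in R 4.3.3 (filterByExpr, TMM, quasi-likelihood F-test, 1 mean per group over 18 libraries, two-sided, Benjamini-Hochberg over 18291 genes, called under 0.05). A check of this fit on simulated counts gave all genes the same dispersion. It therefore does not say what share of true changes the fit would find in these libraries. CPM uses TMM-scaled sizes; 3 counts equal 0.163 to 0.193 CPM, for counting error only. SE is the log2 fold change over the square root of F. Correlations used log2(CPM + 0.5) and 100000 permutations in scipy 1.17.1. Over 153 pairs of libraries, chi-square divided by its degrees of freedom was at least 14.5, so none was a repeat. Alternatives were RLE factors, no or stricter filter, replicate block, 2 groups alone, DESeq2 1.42.0, limma-voom with sample quality weights (limma 3.58.1), log2 FPKM with pseudocounts of 1 and 0.1, marker covariates and leaving out libraries. Members and lists were chosen with earlier results of these data known. Named in full were Apex1, any called member and the 3 of smallest p per comparison; in each other list, up to 2 genes of smallest p where that was under 0.05 unadjusted.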

Additional observations from a re-analysis of the deposited data

Results flagged for a closer look

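In 3 of 96 sets of 6 values (32 members in 3 groups) 1 library stood apart from the other 5 by more than Dixon's critical value; chance flags about 1 in 20 such sets. Mutyh in C10 1 was 2.41 CPM, with the next library at 1.49. Xrcc1 in C10 5 was 35.5 CPM, with the next at 29.6. Pold3 in C10 2 was 27.6 CPM, with the next above it at 33.5. No other result was marked.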

How the results depend on the processing

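The count of members called was 0 in CRS against CON under every alternative run except without CRS 1, where it was 1 (Lig3); with 1 library left out it ran from 0 to 1. It was 0 under every alternative in C10 against CRS and in C10 against CON. The log2 fold change of Apex1 ran from -0.11 to 0.05 in CRS against CON, from -0.31 to -0.16 in C10 against CRS and from -0.35 to -0.19 in C10 against CON, and passed in none of the 31 alternatives. Direction was the same in every alternative for 14, 21 and 23 of 32 members.

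Counts over all genes, in the order CRS against CON, C10 against CRS and C10 against CON, were 1, 15 and 29. They were 178, 351 and 309 with DESeq2, 940, 548 and 252 with limma-voom and sample quality weights, 3, 314 and 200 with the cycling covariate, 2, 713 and 250 with the olfactory neuron covariate, 0, 9 and 161 with the 2 groups alone, 3, 23 and 29 with the stricter filter, 1, 12 and 17 with no filter, 2, 23 and 28 with FPKM plus 1, and 1, 100 and 74 without CRS 2 and CRS 5. With 1 library left out they ran from 0 to 994 (without CRS 1), 7 to 81 (without C10 3 and CRS 2) and 3 to 110 (without C10 4 and CRS 1). With the replicate number as a block they were 0, 13 and 12, with 0 members called in each comparison. For libraries sharing a number, the correlation of their deviations from the group means ran from -0.619 to 0.557. In C10 against CRS it was 0.557, 0.232, 0.399, -0.234, 0.362 and 1.76e-05 for numbers 1 to 6, and the other comparisons had values of both signs. Libraries of different numbers were not correlated for reference, so this cannot decide whether the numbers pair libraries. The main fit had no block because the labels do not state what the numbers mark.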
